A study of Mus musculus with 6 samples.

Results

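The proteasome genes of the mouse were examined in ATAC-seq, which reads open chromatin, of nuclei from the ventral tegmental area (VTA), the midbrain home of dopamine neurons that signal reward. Members were the protein-coding genes of the mm10 RefSeq table whose symbol is Psma, Psmb, Psmc, Psmd, Psme, Psmf or Psmg followed by a digit, 51 of 21887 genes. Their regions were those of the authors' list that overlap a gene's bounds extended by 10 kb on either side, 258 of 193148 regions, and 48 of the 51 genes had at least 1. The list had been made by the authors from accessible chromatin, so that members were chosen by symbol and position, with results on these data already known, and not by their change between groups. Psmc3ip and Psme3ip1 match by symbol only and encode proteins that are not proteasome subunits. For Psma7, Psma8 and Psme2b no region within 10 kb was analysed here.

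The proteasome degrades proteins that carry ubiquitin. Its core particle is a barrel with outer rings of alpha subunits, which gate the entrance, and inner rings of beta subunits, some of which hold the proteolytic sites. The regulatory particle caps the barrel, with a ring of ATPases that unfold substrates and non-ATPase subunits that receive and deubiquitinate them. Dedicated chaperones assemble both particles, interferons induce a set of alternative beta subunits and an activator, and neurons depend on the system for turnover of synaptic proteins. O-GlcNAc, the sugar that the product of Ogt places on proteins of the nucleus and cytoplasm, is known on proteasome ATPases.

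The groups were 3 Ogtflox+/Y and 3 Ogtflox-/Y libraries. Per the series' design text, both genotypes were injected in the ventral tegmental area with an AAV vector for Cre named TH-Cre and with AAV-DIO-H2B-EGFP, a Cre-dependent nuclear label, and nuclei positive for EGFP were sorted. The text calls the contrast a knockdown of Ogt. The labels call the cells dopaminergic and the treatment a virus injection; the sources used here give no age, floxed exons or number of animals. Since separate animals are not named, a p-value here reflects the spread among 6 libraries, and that spread may be technical. Replicates are numbered 1 to 3 in each group. Groups follow the genotype label, while the title of Ogtflox+/Y replicate 1 names the Ogtflox-/Y genotype instead. Grouping by title left 0 of 257 member regions called by edgeR, and 0 of all 192925 regions tested in that grouping. At an unadjusted p under 0.05 it left 21 member regions, and the share of all regions at that p is not given here.

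Library totals were 41025728 to 42678585 reads in Ogtflox+/Y and 34384319 to 66853563 reads in Ogtflox-/Y libraries, with 31.0% to 37.0% and 36.6% to 38.2% of them in regions. The most accessible region at the start of Ogt had 17.9, 15 and 14.7 CPM (reads relative to the library's reads in regions, with TMM scaling) in Ogtflox+/Y replicates 1 to 3, against 11.1, 11.1 and 9.09 CPM in Ogtflox-/Y, which does not check the genotype because the deleted part is not known. Start regions of 8 of 8 dopaminergic marker genes were listed. Their summed level, most of it at Th, was 213 to 286 CPM in Ogtflox+/Y against 214 to 419 CPM in Ogtflox-/Y libraries. Th itself had 172 to 238 CPM in Ogtflox+/Y and 178 to 379 CPM in Ogtflox-/Y libraries. Start regions of the other dopaminergic markers had 2.65 to 16.3 CPM in single libraries. The part of the TH-Cre vector in the reads at Th was not tested. For 5 of 6 astrocyte markers the sum was 44.2, 19.3 and 41.3 CPM in Ogtflox+/Y replicates 1 to 3 against 15.9 to 18.2 CPM in Ogtflox-/Y, and for 3 GABAergic markers 46.8 to 63.2 CPM in Ogtflox+/Y against 31.0 to 41.3 CPM in Ogtflox-/Y. For 7 of 7 oligodendrocyte markers it was 36.2 to 73.0 CPM in Ogtflox+/Y against 48.2 to 51.5 CPM in Ogtflox-/Y, and for 3 of 4 endothelial markers 4.6 to 6.88 CPM in Ogtflox+/Y against 8.36 to 11.6 CPM in Ogtflox-/Y. Slc17a6, the glutamatergic marker, had 7.41 to 13.8 CPM in Ogtflox+/Y against 10.2 to 13.4 CPM in Ogtflox-/Y, and P2ry12, the one of 5 microglial markers with a start region, 0.598 to 1.97 CPM in Ogtflox+/Y against 0.38 to 0.859 CPM in Ogtflox-/Y. Of single markers, edgeR called higher the start regions of 3 astrocyte genes, 2 GABAergic genes, the dopaminergic gene En1 and the oligodendrocyte genes Mog, Mag, Olig2 and Sox10. The oligodendrocyte gene Olig1 and 1 endothelial gene were called lower. Log2 fold changes were 2.35 for Mog, 2.92 for Mag, 0.91 for Olig2, 1.76 for Sox10 and -0.79 for Olig1. Ogtflox+/Y replicate 1 was the highest library of its group at each of these. Mag had 9.9, 0.159 and 0.797 CPM in Ogtflox+/Y replicates 1 to 3, against 0.352 to 0.663 CPM in Ogtflox-/Y. Mog had 5.97, 0.951 and 0.864 CPM in Ogtflox+/Y, against 0.38 to 0.663 CPM in Ogtflox-/Y. Groups overlap at Mag, Olig2 and Olig1 and are apart at Mog and Sox10. The part of these cell populations in the values of proteasome genes was not tested, and more nuclei of a type cannot be told apart from more accessibility per nucleus.

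Sequences from the promoters of 6 members are shown because the results turn on their start regions. Psmc1, Psma4, Psmd11 and Psmb9 had the largest called change among ATPase, alpha, non-ATPase and inducible beta subunit genes, Psmb8 is the inducible subunit whose start region was not called, and Psmb6 has a start region that was not called between neighbours that were. Each is the 250 bases upstream of the start in RefSeq's GRCm38.p6 (mm10), 5′ to 3′ on the gene's strand, with matches to the motifs named in the next paragraph in capitals.
Psmc1 (chr12:100109952-100110201, plus strand): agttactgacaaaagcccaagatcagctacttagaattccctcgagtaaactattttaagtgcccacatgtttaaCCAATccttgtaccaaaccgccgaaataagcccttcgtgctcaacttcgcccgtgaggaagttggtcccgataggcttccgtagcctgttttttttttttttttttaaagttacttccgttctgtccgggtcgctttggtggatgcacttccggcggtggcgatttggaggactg
Psma4 (chr9:54950609-54950858, plus strand): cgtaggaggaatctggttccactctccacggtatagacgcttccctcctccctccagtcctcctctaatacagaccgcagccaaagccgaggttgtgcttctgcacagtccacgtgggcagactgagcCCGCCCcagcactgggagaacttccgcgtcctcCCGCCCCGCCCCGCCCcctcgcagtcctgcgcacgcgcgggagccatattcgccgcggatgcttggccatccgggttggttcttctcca
Psmd11 (chr11:80428365-80428614, plus strand): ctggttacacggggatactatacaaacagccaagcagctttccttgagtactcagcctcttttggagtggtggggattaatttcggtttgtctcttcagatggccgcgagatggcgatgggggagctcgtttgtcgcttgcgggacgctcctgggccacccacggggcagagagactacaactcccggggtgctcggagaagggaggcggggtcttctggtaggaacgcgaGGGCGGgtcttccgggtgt
Psmb9 (chr17:34187331-34187580, minus strand): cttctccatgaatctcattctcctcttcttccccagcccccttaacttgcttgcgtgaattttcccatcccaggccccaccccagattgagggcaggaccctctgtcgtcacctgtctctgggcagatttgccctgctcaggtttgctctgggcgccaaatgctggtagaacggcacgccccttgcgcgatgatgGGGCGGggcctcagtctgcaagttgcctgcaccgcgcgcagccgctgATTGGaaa
Psmb8 (chr17:34197945-34198194, plus strand): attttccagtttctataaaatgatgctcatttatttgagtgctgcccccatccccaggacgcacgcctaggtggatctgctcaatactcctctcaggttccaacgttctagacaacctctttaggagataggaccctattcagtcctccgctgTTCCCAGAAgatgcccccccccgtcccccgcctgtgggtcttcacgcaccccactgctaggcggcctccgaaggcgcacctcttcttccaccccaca
Psmb6 (chr11:70525107-70525356, plus strand): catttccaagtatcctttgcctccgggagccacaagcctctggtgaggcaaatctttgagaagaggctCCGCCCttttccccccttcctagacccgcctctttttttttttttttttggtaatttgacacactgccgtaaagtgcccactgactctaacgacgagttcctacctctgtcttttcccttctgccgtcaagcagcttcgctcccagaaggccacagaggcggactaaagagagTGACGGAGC

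The 5 motifs searched, on both strands, were TGACNNNGC, the core of the antioxidant response element bound by Nfe2l1, a transcription factor of proteasome genes, CCAAT, the NF-Y box, TTCNNNGAA, a STAT site, GGGCGG, the GC box, and the interferon response element (GAAA, any 2 bases, then GAAA); matches could overlap. In Psmb6 the TGACNNNGC match is the last 9 bases before the start, and a GC box lies 182 bases from it. The Psmc1 sequence holds a CCAAT match, those of Psma4 and Psmd11 hold GC boxes, 4 in Psma4 and 1 in Psmd11, and that of Psmb9 holds a GC box and a CCAAT match on the opposite strand 8 bases from the start. The Psmb8 sequence holds a TTCNNNGAA match, and STAT3 is named in the series' title; this sequence does not overlap the Psmb8 start region (34197436 to 34197836), while the other five overlap the start regions of their genes. A match describes the letters and not a bound site.

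The share of promoters with a motif lay near that of other genes for CCAAT and TGACNNNGC. Of 43 members with a known start 37.2% held CCAAT, against 39.5% of 17449 other genes, and 11.6% held TGACNNNGC, against 12%. TTCNNNGAA was in 4.65% of member promoters against 7.66% of the others, the interferon response element in 6.98% against 3.47% and GGGCGG in 53.5% against 45.8%. Among 8876 other genes whose start region was in the most accessible of 10 equal level classes the shares were 41.8% for CCAAT, 14.2% for TGACNNNGC, 6.7% for TTCNNNGAA, 2.69% for the interferon response element and 67.6% for GGGCGG. The CCAAT box stood in 8 of 15 promoters of the core particle and in 4 of 14 of the regulatory particle. It stood in 37.5% of the 16 promoters whose start region was called higher and in 37.5% of the 24 whose start region was not called. The median GC content of member promoters was 57.6%, against 61.0% in the other genes of that class.

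Across their 257 tested regions, proteasome genes were more often more accessible than less accessible in Ogtflox+/Y nuclei with TMM scaling, a balance that turned with library totals, as did that of all regions. Accessibility rose at 73 regions and fell at 11 (28.4% and 4.28%), by edgeR's quasi-likelihood test at a Benjamini-Hochberg adjusted p under 0.05 over 191693 regions, with TMM scaling. Over all regions 15.4% were called higher and 12.7% lower. The median log2 fold change, Ogtflox+/Y over Ogtflox-/Y, was 0.20 at member regions and -0.01 over all regions. All others at the same position class and level class, weighted to the members' distribution, were called higher in 22.4% and lower in 10.9%. Scaled by library totals, which shifts the median of all regions to -0.27, the member counts were 25 higher and 34 lower, and over all regions 6.85% were called higher and 24.6% lower. Without Ogtflox-/Y replicate 2 or 3 the member count called higher was 45 or 44, against 9.91% or 11.2% of all regions. The count called lower was 7 without Ogtflox+/Y replicate 1, 3 without Ogtflox-/Y replicate 1 and 5 without Ogtflox-/Y replicate 2. Over all regions the shares called lower were 9.14%, 7.7% and 7.66% in the same fits.

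The start region of a gene is its most accessible region within 1 kb of the RefSeq start, or of either gene bound for members with no start in the promoter table. It was found for 47 members and lay in the most accessible of the 10 level classes of all regions for 45 of them, while Psmb10 was in class 9 and Psmb11 in class 1. Accessibility rose at 20 of the 47 start regions and fell at 0 with edgeR. With DESeq2 16 rose and 0 fell, or 34.0% higher against 29.7% of other genes. In edgeR 30 had an unadjusted p under 0.05, in either direction, and the share of other genes at that p is not given here. With library totals only Psmc1 was called higher and Psmd10 lower, and with loess curves, which remove a trend with level, 6 were higher (Psma4, Psmb9, Psmb10, Psmc1, Psmc2 and Psmf1) and Psmd10 lower. The shares called higher were 2.13% of members and 5.23% of other genes with library totals, and 12.8% of members and 12.3% of other genes with loess curves. Start regions of other genes were called higher in 36.6% and lower in 5.94%, and those in the top level class in 43.1% and 3.09%, so that the members' 42.6% lay near the share of equally accessible genes. The members' median log2 fold change was 0.27 (-0.26 to 0.68), against 0.23 for other genes. The 3 Ogtflox+/Y libraries lay above the 3 Ogtflox-/Y libraries at 23 members, against 45.1% of other genes, and below them at 1, Psmd10, against 9.44%. Without Ogtflox-/Y replicate 2 the count called higher was 8, or 17% against 20.7% of other genes, and without Ogtflox-/Y replicate 3 it was 9, or 19.1% against 21.2%.

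**Figure D1:**
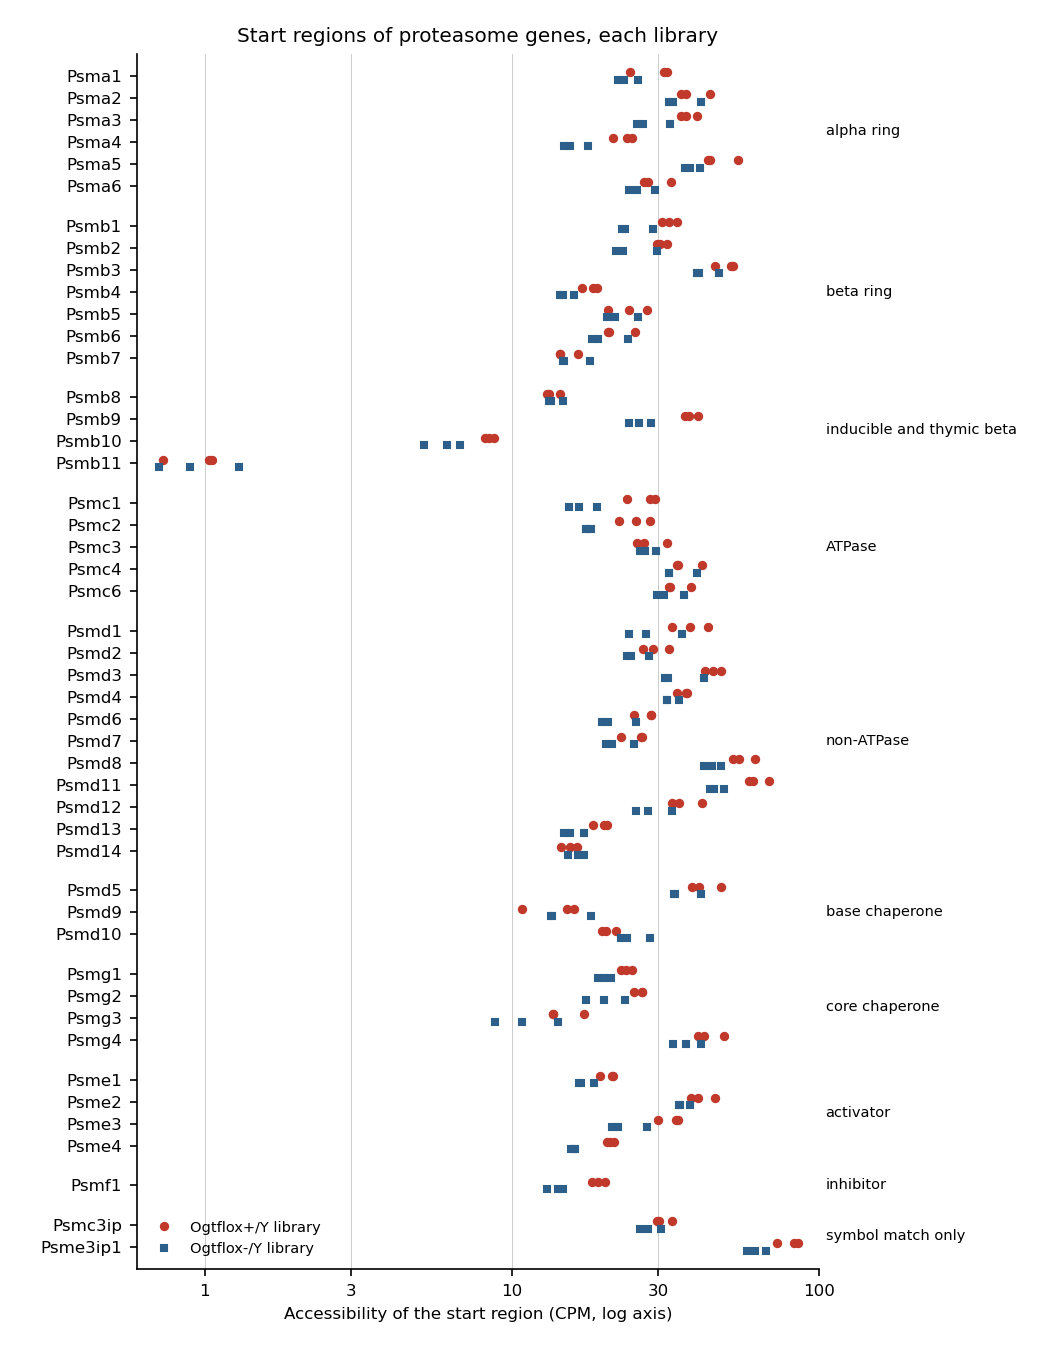
Accessibility of the start region of 47 members in CPM (log axis), by role; red circles are the 3 Ogtflox+/Y libraries and blue squares the 3 Ogtflox-/Y libraries. Levels lie above 10 CPM in every library for all but Psmb10, Psmb11 and Psmg3, and the groups are apart with Ogtflox+/Y higher at 23 members.

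Levels between genes were compared per kb of region, since start regions were 401 to 1155 bp wide. Psmd8, a regulatory particle subunit, had the highest level, 141 ± 12.5 CPM per kb in Ogtflox+/Y and 112 ± 7.08 in Ogtflox-/Y libraries (SD, n = 3 each). The core subunit Psmb3 followed with 125 ± 9.18 CPM per kb in Ogtflox+/Y and 106 ± 9.75 in Ogtflox-/Y, and in both groups the SD ranges of these genes overlap. The lowest of the start regions were those of Psmb10, with 21.1 ± 0.689 CPM per kb in Ogtflox+/Y and 15.1 ± 2.06 in Ogtflox-/Y, and Psmb11, a subunit known from the thymus, with 2.34 ± 0.453 in Ogtflox+/Y and 2.41 ± 0.74 in Ogtflox-/Y. By level of the whole region, Psmb3 and Psmb11 were the most and least accessible of the core particle, and Psmd11 and Psmd14, the deubiquitinase of the lid, those of the regulatory particle. Psmd14 had 16.3, 15.5 and 14.5 CPM in Ogtflox+/Y replicates 1 to 3, against 17.2, 16.4 and 15.2 CPM in Ogtflox-/Y replicates 1 to 3, which overlap (edgeR adjusted p = 0.676). Psmb3 had 52.4, 45.7 and 51.8 CPM in Ogtflox+/Y, against 47.1, 40.6 and 40.1 CPM in Ogtflox-/Y (log2 fold change 0.23, edgeR adjusted p = 0.0826), and its groups overlap; it passed without Ogtflox+/Y replicate 2 (0.0359) or Ogtflox-/Y replicate 1 (0.0406).

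Start regions rose at 7 of 17 core and 8 of 16 regulatory particle genes, a difference that was not tested. In both 0 fell, and the median log2 fold change was 0.27 for the core and 0.31 for the regulatory particle. Other start regions of the same level were called higher in 37.7% for the core and in 43.7% for the regulatory particle. The summed level of the core start regions was 488, 448 and 441 CPM in Ogtflox+/Y replicates 1 to 3, against 426, 365 and 354 CPM in Ogtflox-/Y. For the regulatory particle it was 583, 524 and 525 CPM in Ogtflox+/Y, against 495, 431 and 419 CPM in Ogtflox-/Y. Neither sum overlaps between groups, nor does that of the start regions of 14295 other genes, which was 379377 to 425231 CPM in Ogtflox+/Y against 329622 to 360550 CPM in Ogtflox-/Y libraries. With library totals the medians were 0.00 for the core and 0.05 for the regulatory particle, and with loess curves they were -0.001 and 0.04.

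**Figure D2:**
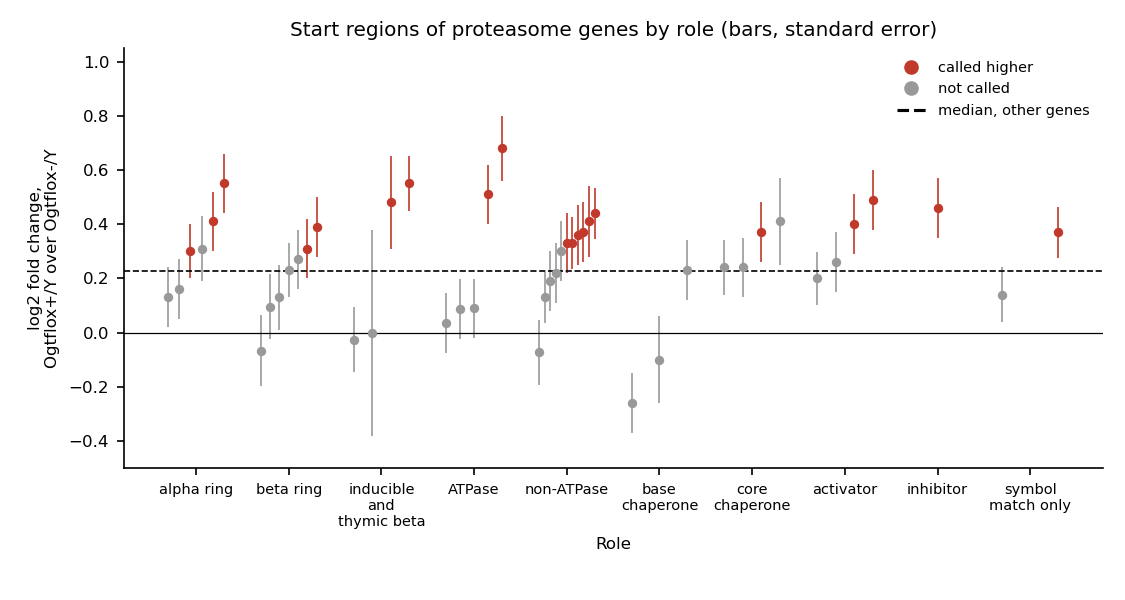
Log2 fold change of each member's start region, Ogtflox+/Y over Ogtflox-/Y, with its standard error, by role; red points passed the adjusted threshold and grey points did not. The dashed line is the median of 14295 other genes, 0.23, and the red points, all positive, lie at 0.30 to 0.68; with library totals the median of all members was 0.00.

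Among the alpha ring genes, whose products form the gate of the barrel, 3 of 6 start regions rose and the other three did not pass. Psma4 (chromosome 9, 54950552 to 54950952), whose start region is shared with the start of AY074887, had 23.8, 21.4 and 24.7 CPM in Ogtflox+/Y replicates 1 to 3, against 17.7, 15.5 and 14.8 CPM in Ogtflox-/Y (log2 fold change 0.55 with SE 0.11, edgeR adjusted p = 0.00196). Psma3 (chromosome 12, 70974442 to 70974842) had 40.2, 36.8 and 35.6 CPM in Ogtflox+/Y, against 32.7, 26.8 and 25.6 CPM in Ogtflox-/Y (0.41, SE 0.11, edgeR adjusted p = 0.00904). The libraries of the 2 groups do not overlap at either gene. Psma5 (chromosome 3, 108256864 to 108257585) had 54.5, 43.6 and 44.3 CPM in Ogtflox+/Y, against 40.9, 37.9 and 36.6 CPM in Ogtflox-/Y (0.30, SE 0.10, edgeR adjusted p = 0.0346), also without overlap. Psma1, Psma2 and Psma6 had log2 fold changes of 0.31, 0.13 and 0.16 and overlapping groups. Psma3 did not pass without Ogtflox-/Y replicate 2 or 3 (edgeR adjusted p = 0.064 and 0.0655), and Psma5 did not pass without either of these (0.122 and 0.139) or Ogtflox+/Y replicate 1 (0.136); with loess curves Psma5 had -0.0015, and DESeq2 did not call it (adjusted p = 0.0567).

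Beta ring genes, which encode the proteolytic and structural subunits of the inner rings, had 2 of 7 start regions higher. That is 28.6%, beside 43.1% of other genes' start regions in the top level class. Psmb1 (chromosome 17, 15497896 to 15498531) had 32.4, 30.8 and 34.6 CPM in Ogtflox+/Y replicates 1 to 3, against 28.8, 23.3 and 22.9 CPM in Ogtflox-/Y (log2 fold change 0.39 with SE 0.11, edgeR adjusted p = 0.012). Psmb2 (chromosome 4, 126677395 to 126677795) had 31.9, 30.3 and 29.6 CPM in Ogtflox+/Y, against 29.6, 23.0 and 21.9 CPM in Ogtflox-/Y (0.31, SE 0.11, edgeR adjusted p = 0.0493). Groups do not overlap at Psmb1, and at Psmb2 the lowest Ogtflox+/Y library and the highest Ogtflox-/Y library were level to 3 digits. The catalytic subunits Psmb5 and Psmb6 had log2 fold changes of 0.10 and 0.13, and Psmb7, the other catalytic one, -0.07, all with overlapping groups. Psmb4, a structural subunit, had 0.27 (edgeR adjusted p = 0.0898). Psmb1 did not pass without Ogtflox-/Y replicate 2 or 3 (edgeR adjusted p = 0.0842 and 0.0754), and of the fits without 1 library Psmb2 passed only in that without Ogtflox-/Y replicate 1 (0.0566 to 0.227 in the others); DESeq2 did not call Psmb2 (adjusted p = 0.0972).

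Of the inducible and thymic beta genes, Psmb9 and Psmb10 rose, and Psmb8 and Psmb11 did not pass. That is 2 of 4, beside 36.6% of the start regions of all other genes. Psmb9 (chromosome 17, 34187243 to 34187643), which shares its start region with Tap1, the peptide transporter gene of antigen presentation, had 40.4, 36.5 and 37.7 CPM in Ogtflox+/Y replicates 1 to 3, against 28.3, 25.9 and 24.1 CPM in Ogtflox-/Y (log2 fold change 0.55 with SE 0.10, edgeR adjusted p = 7.27e-04). Psmb10 (chromosome 8, 105938218 to 105938618) had 8.17, 8.72 and 8.44 CPM in Ogtflox+/Y, against 6.15, 6.8 and 5.16 CPM in Ogtflox-/Y (0.48, SE 0.17, edgeR adjusted p = 0.0362). The groups are apart at both. A more accessible region inside Psmb10 (105936922 to 105937322), 1070 bp from the start, had 42.3, 35.7 and 36.7 CPM in Ogtflox+/Y, against 38.0, 32.4 and 31.5 CPM in Ogtflox-/Y, and was not called (0.18, SE 0.10, edgeR adjusted p = 0.217). Psmb8 (chromosome 17, 34197436 to 34197836) had 13.2, 14.3 and 13 CPM in Ogtflox+/Y, against 14.7, 13.2 and 13.4 CPM in Ogtflox-/Y (-0.03, SE 0.12, edgeR adjusted p = 0.889), and Psmb11 had 1.06, 1.03 and 0.731 CPM in Ogtflox+/Y, against 1.29, 0.898 and 0.71 CPM in Ogtflox-/Y. Both overlap between groups, and Psmb8 and Psmb9 lie on either side of Tap1. Psmb10 passed with all libraries but did not pass when Ogtflox+/Y replicate 2 or 3 or Ogtflox-/Y replicate 1, 2 or 3 was left out (edgeR adjusted p = 0.053 to 0.152). DESeq2 did not call it (adjusted p = 0.0732).

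The ATPase genes split into a pair with high changes and the rest near 0. Psmc1 (chromosome 12, 100110074 to 100110474) had the largest change of all 47 start regions, with 29.3, 28.1 and 23.7 CPM in Ogtflox+/Y replicates 1 to 3, against 18.9, 16.6 and 15.3 CPM in Ogtflox-/Y (log2 fold change 0.68 with SE 0.12, edgeR adjusted p = 5.10e-04). Psmc2 (chromosome 5, 21784956 to 21785356), whose start region is shared with Dnajc2, had 28.1, 25.4 and 22.4 CPM in Ogtflox+/Y, against 17.4, 18.1 and 17.5 CPM in Ogtflox-/Y (0.51, SE 0.11, edgeR adjusted p = 0.00254). Groups are far apart at both. Psmc3, Psmc4 and Psmc6 had log2 fold changes of 0.04, 0.09 and 0.09 with overlapping groups, and Psmc5 had no region nearer than one 8925 bp away, inside Ddx42. Psmc1 was called higher in each of the fits tried except the grouping by title (log2 fold change 0.36, edgeR adjusted p = 0.536).

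Non-ATPase genes, for the scaffold, ubiquitin receptors and lid of the regulatory particle, had 6 of 11 start regions higher. That is 54.5%, beside 43.1% of other genes' start regions in the top level class. Psmd11 (chromosome 11, 80428375 to 80429348), a lid subunit gene, had 60.8, 59.0 and 68.5 CPM in Ogtflox+/Y replicates 1 to 3, against 49.1, 45.5 and 44.2 CPM in Ogtflox-/Y (log2 fold change 0.44 with SE 0.09, edgeR adjusted p = 0.00237). Psmd1 (chromosome 1, 86064184 to 86064920), a large scaffold subunit gene, had 43.5, 38.0 and 33.1 CPM in Ogtflox+/Y, against 35.7, 27.3 and 24.1 CPM in Ogtflox-/Y (0.41, SE 0.13, edgeR adjusted p = 0.0272). Psmd3 (chromosome 11, 98682161 to 98682561) had 47.9, 42.6 and 45.3 CPM in Ogtflox+/Y, against 42.2, 31.6 and 32.3 CPM in Ogtflox-/Y (0.37, SE 0.11, edgeR adjusted p = 0.0206). Groups are apart at Psmd11 and narrowly at Psmd3, and overlap at Psmd1. The other called genes were Psmd12, Psmd8 and Psmd6, at 0.36, 0.33 and 0.33, none of which passed without Ogtflox-/Y replicate 2 or 3; Psmd12 and Psmd6 did not pass without Ogtflox+/Y replicate 1, nor Psmd6 without Ogtflox+/Y replicate 2 or in DESeq2. The ubiquitin receptor gene Psmd4 had 0.13 and Psmd2, another scaffold gene, 0.22, neither past the threshold. Psmd13 at 0.30 had groups apart but an edgeR adjusted p of 0.0531, at a region 273 bp from its start and shared with Sirt3. A neighbouring region that overlaps the Psmd13 start (chromosome 7, 140882123 to 140882523) was called higher, at 0.48 (SE 0.12, edgeR adjusted p = 0.00869). Without Ogtflox-/Y replicate 2 or 3, Psmd1 did not pass (edgeR adjusted p = 0.123 and 0.168), nor did Psmd3 (0.138 and 0.114), and Psmd1 did not pass without Ogtflox+/Y replicate 1 (0.083).

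Assembly chaperone genes had 1 called start region of 7, beside 43.1% of other genes' start regions called higher in the top level class. Psmg2, one of the core chaperones, had 26.5, 25.0 and 26.5 CPM in Ogtflox+/Y replicates 1 to 3, against 23.3, 20 and 17.4 CPM in Ogtflox-/Y (chromosome 18, 67641192 to 67641592; log2 fold change 0.37 with SE 0.11, edgeR adjusted p = 0.0219), at a region shared with the start of Cep76. Its partners Psmg1, Psmg3 and Psmg4 had log2 fold changes of 0.24, 0.41 and 0.24 that did not pass. The base chaperone genes Psmd5, Psmd9 and Psmd10 were not called, at 0.23, -0.10 and -0.26. Psmd10, which shares its start region with the autophagy gene Atg4a, had 21.8, 20.2 and 19.7 CPM in Ogtflox+/Y, against 28.1, 22.6 and 23.7 CPM in Ogtflox-/Y (edgeR adjusted p = 0.0827), the one member with every Ogtflox+/Y library below every Ogtflox-/Y library. Psmg2 did not pass without Ogtflox-/Y replicate 2 or 3 (edgeR adjusted p = 0.0855 and 0.132).

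Genes of the proteasome's activators and inhibitor followed. Psme3, for the nuclear activator, had 30, 34.2 and 34.8 CPM in Ogtflox+/Y replicates 1 to 3, against 27.5, 22.2 and 21.2 CPM in Ogtflox-/Y (chromosome 11, 101315931 to 101316331; log2 fold change 0.49 with SE 0.11, edgeR adjusted p = 0.00383). Psme4, for a large activator with a single chain, had 20.9, 20.4 and 21.5 CPM in Ogtflox+/Y, against 15.6, 16.0 and 15.9 CPM in Ogtflox-/Y (chromosome 11, 30771506 to 30771906; 0.40, SE 0.11, edgeR adjusted p = 0.00947). Psmf1, for an inhibitor of the core particle, had 18.3, 20.1 and 19.1 CPM in Ogtflox+/Y, against 14.7, 14.1 and 13 CPM in Ogtflox-/Y (chromosome 2, 151741089 to 151741489; 0.46, SE 0.11, edgeR adjusted p = 0.00629). Groups are apart at all of these genes.

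The genes of the interferon-inducible activator, Psme1 and Psme2, did not pass the test although their groups are apart. Psme1 had 21.2, 19.3 and 21.3 CPM in Ogtflox+/Y replicates 1 to 3, against 18.5, 16.6 and 16.8 CPM in Ogtflox-/Y (chromosome 14, 55578002 to 55578597; log2 fold change 0.26 with SE 0.11, edgeR adjusted p = 0.0864). Psme2, at a region shared with Rnf31, had 40.5, 38.4 and 45.9 CPM in Ogtflox+/Y, against 35.3, 35.0 and 38.1 CPM in Ogtflox-/Y (chromosome 14, 55591467 to 55592153; 0.20, SE 0.10, edgeR adjusted p = 0.127). A neighbouring region that overlaps the Psme2 start (chromosome 14, 55590957 to 55591357) was called higher, at 0.55 (SE 0.13, edgeR adjusted p = 0.00388). Of the genes that match by symbol only, Psme3ip1 had 85.7, 72.8 and 83.1 CPM in Ogtflox+/Y, against 67.1, 58.2 and 61.8 CPM in Ogtflox-/Y, at a region shared with Rspry1 (chromosome 8, 94601636 to 94602790; 0.37, SE 0.10, edgeR adjusted p = 0.00785), and Psmc3ip had 0.14. Psme3ip1 did not pass without Ogtflox-/Y replicate 2 (edgeR adjusted p = 0.0649) and had -0.0029 with loess curves.

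Beside the start regions, members had 21 further regions within 1 kb of a start, or of either bound where no start was known. Of these 13 rose and 0 fell (61.9%), against 37.2% higher and 4.0% lower of 8746 such regions at other genes, not matched by level. Those called at Psme2 (55590957 to 55591357), Psmc2 (21786518 to 21786918) and Psmd13 (140882123 to 140882523) overlap a RefSeq start. By distance of centre from a known start, 1 of 5 member regions 0.3 to 1 kb upstream rose, against 34.6% of others. Downstream it was 4 of 6, against 43.1%, with start regions included in both. The 21 include both neighbours of the Psmb6 start region. Upstream (chromosome 11, 70524257 to 70524657) there were 3.55, 2.77 and 3.99 CPM in Ogtflox+/Y replicates 1 to 3, against 0.836, 1.02 and 0.947 CPM in Ogtflox-/Y (log2 fold change 1.86 with SE 0.26, edgeR adjusted p = 9.18e-05). Downstream (70525691 to 70526091) there were 5.59, 6.1 and 6.18 CPM in Ogtflox+/Y, against 1.75, 1.68 and 1.52 CPM in Ogtflox-/Y (1.86, SE 0.21, edgeR adjusted p = 1.14e-05). Between them, at the start region (70525138 to 70525538) that holds most of the printed sequence, levels were 25.1, 20.5 and 20.7 CPM in Ogtflox+/Y, against 23.9, 19.1 and 18.2 CPM in Ogtflox-/Y (0.13, SE 0.12, edgeR adjusted p = 0.471). Both flanks are apart between groups and the centre overlaps.

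Psmf1 and Psmd8 had the largest changes of this kind, downstream of start regions that rose by 0.46 and 0.33 on the log2 scale. A region inside Psmf1 (chromosome 2, 151740016 to 151740416), 894 bp from its start, had 8.92, 9.91 and 9.44 CPM in Ogtflox+/Y replicates 1 to 3, against 1.52, 1.52 and 1.04 CPM in Ogtflox-/Y (log2 fold change 2.79 with SE 0.21, edgeR adjusted p = 1.62e-07), the largest change of all member regions. One inside Psmd8 (chromosome 7, 29179320 to 29179720), 953 bp from its start, had 6.73, 5.39 and 6.65 CPM in Ogtflox+/Y, against 1.14, 1.56 and 1.23 CPM in Ogtflox-/Y (2.22, SE 0.23, edgeR adjusted p = 3.62e-06). The groups are far apart at both. Just beyond a bound of Psmc3 (chromosome 2, 91052754 to 91053154) there were 2.49, 2.54 and 2.46 CPM in Ogtflox+/Y, against 0.988, 1.13 and 1.23 CPM in Ogtflox-/Y (1.14, SE 0.26, edgeR adjusted p = 0.0035), also apart. Downstream of the Psme4 and Psma3 starts regions rose by 0.87 (SE 0.15, edgeR adjusted p = 4.97e-04) and 0.82 (SE 0.16, edgeR adjusted p = 0.00114).

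**Figure D3:**
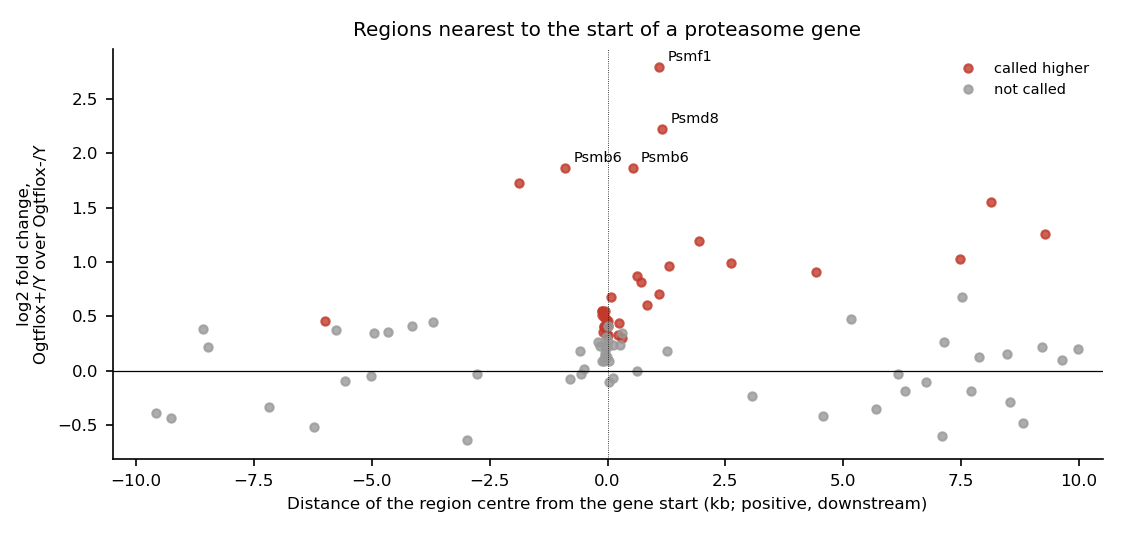
Log2 fold change, Ogtflox+/Y over Ogtflox-/Y, of the 92 regions that lie nearest to the known start of a member, by the distance of the region's centre from that start in the direction of transcription (kb); red regions were called higher, grey ones were not called and 0 were called lower. The highest values, at Psmf1, Psmd8 and Psmb6, lie beside the start and not on it.

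Inside genes, away from either bound by more than 1 kb, accessibility rose at 29 of 104 member regions and fell at 5 (27.9% and 4.81%). Of other inside regions 11.9% rose and 13.4% fell. The 29 include the start regions of Psma3 and Psmf1. They also include regions at Psmc2 (21786518 to 21786918), Psma3 (70975135 to 70975535) and Psmf1 (151740016 to 151740416) already counted above within 1 kb of a start. Weighted to the members' levels the other inside regions had 12.1% higher and 13.2% lower, and weighted to level and distance from the bound 15% and 12.7%. Of these 104, 77 lay within the member itself, with 25 higher and 2 lower, and 27 within a neighbouring gene, with 4 higher and 3 lower. The 77 came from 24 genes, of which 15 had one called higher and 2 one called lower, and regions of 1 gene are not independent. Core genes had 12 of 34 inside the gene higher and 1 lower, and regulatory genes 9 of 22 higher and 0 lower. With library totals the inside count was 14 higher and 14 lower, against 5.52% and 26.1% of other inside regions, and in DESeq2 19 and 2, against 7.94% and 8.03%. It was 19 higher without either Ogtflox-/Y replicate 2 or Ogtflox-/Y replicate 3, against 7.67% and 8.37% of other inside regions. The lower count was 2 without Ogtflox+/Y replicate 1 or Ogtflox-/Y replicate 2 and 1 without Ogtflox-/Y replicate 1. Of other inside regions 9.39%, 7.87% and 8.07% were lower in these fits.

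In the other position classes the members' shares of higher regions were near or below those of others. At gene ends, within 1 kb of a bound, 41 of 112 member regions rose and 2 fell (36.6% and 1.79%), against 32.9% and 6.94% of others, or 34.7% and 6.19% at the same levels. Outside genes up to 10 kb away 3 of 41 rose and 4 fell (7.32% and 9.76%), against 14.7% and 17.9% of others. The regions kept that lay farthest from the nearest member, at 9901, 9907 and 9973 bp from Psmb10, Psmd5 and Psmd13, had log2 fold changes of -0.26, 0.22 and -0.32, and the nearest ones left out, at 10060, 10419 and 10449 bp from Psmd12, Psmd4 and Psmb5, had 0.19, -0.21 and 0.24. Of the 258 member regions 89 also touch another gene.

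**Figure D4:**
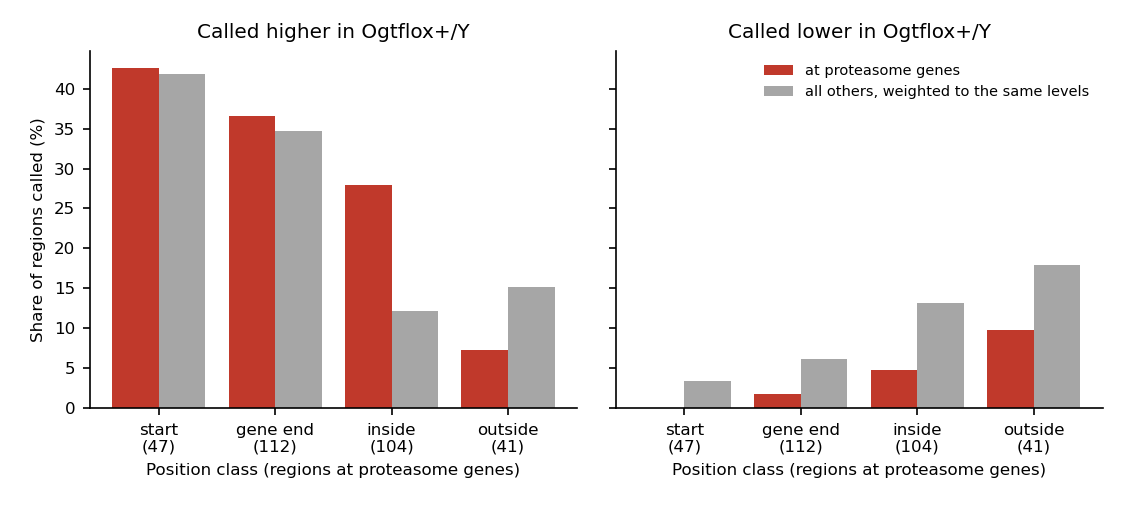
Share of member regions (red, left bar of each pair) and of all others weighted to the same level classes (grey) that were called higher (left panel) or lower (right panel) in Ogtflox+/Y, by position; start regions are counted again in the class they lie in. The bars are level for start regions, at 42.6% and 41.9% higher, and differ most inside genes, at 27.9% and 12.1%.

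In 22 member regions accessibility rose by at least 2-fold and in 1 it fell, none of them a start region. These are 8.56% of member regions for the gains, against 6.66% of all regions called higher with such a fold and 5.11% called lower. Inside Psmb1 (chromosome 17, 15490542 to 15490942) there were 2.49, 3.72 and 3.52 CPM in Ogtflox+/Y replicates 1 to 3, against 0.988, 0.586 and 0.852 CPM in Ogtflox-/Y (log2 fold change 2.05 with SE 0.29, edgeR adjusted p = 9.64e-05). Outside Psmb4 (chromosome 3, 94888630 to 94889030) there were 2.65, 4.6 and 2.72 CPM in Ogtflox+/Y, against 1.44, 0.859 and 0.805 CPM in Ogtflox-/Y (1.73, SE 0.30, edgeR adjusted p = 5.78e-04). Groups are apart at both. Within Psma1 (chromosome 7, 114267776 to 114268176) levels were 1.13, 1.27 and 1.53 CPM in Ogtflox+/Y, against 0.38, 0.586 and 0.331 CPM in Ogtflox-/Y (1.55, SE 0.38, edgeR adjusted p = 0.00623), where 3 reads correspond to 0.123 to 0.236 CPM.

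Besides the Psmd8 region, regulatory particle genes had 5 such regions inside the gene. Psmd1 had 4.08, 2.93 and 3.85 CPM in Ogtflox+/Y replicates 1 to 3, against 1.14, 1.45 and 1.42 CPM in Ogtflox-/Y, at a region that also lies at Htr2b, a serotonin receptor gene (chromosome 1, 86110631 to 86111031; log2 fold change 1.42 with SE 0.24, edgeR adjusted p = 5.23e-04). A second Psmd1 region (86126085 to 86126485) had 8.54, 6.66 and 7.84 CPM in Ogtflox+/Y, against 2.73, 3.83 and 4.59 CPM in Ogtflox-/Y (1.02, SE 0.20, edgeR adjusted p = 0.00138). These lie 46012 and 61466 bp from the start and are apart between groups. Inside Psmd11 (chromosome 11) the region from 80439229 to 80439629 had 1.66, 2.62 and 1.99 CPM in Ogtflox+/Y, against 0.608, 0.977 and 0.805 CPM in Ogtflox-/Y (1.33, SE 0.30, edgeR adjusted p = 0.00381). Its neighbour from 80440045 to 80440445 had 3.18, 2.38 and 2.39 CPM in Ogtflox+/Y, against 1.37, 1.33 and 0.805 CPM in Ogtflox-/Y (1.19, SE 0.28, edgeR adjusted p = 0.00449). Both are apart, while the region beyond the other end of Psmd11 (80474084 to 80474484) fell, by 0.53 on the log2 scale. Inside Psmd13 (chromosome 7, 140894042 to 140894442) there were 2.34, 1.11 and 1.26 CPM in Ogtflox+/Y, against 0.684, 0.781 and 0.615 CPM in Ogtflox-/Y (1.16, SE 0.35, edgeR adjusted p = 0.0209); it did not pass without Ogtflox+/Y replicate 1 (0.172) or without Ogtflox-/Y replicate 1, 2 or 3 (0.0542, 0.0505 and 0.0702), nor in DESeq2 (0.0752).

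Core particle genes had 4 further ones in or beside the gene. Inside Psmb2 (chromosome 4, 126683134 to 126683534) there were 3.33, 3.33 and 3.46 CPM in Ogtflox+/Y replicates 1 to 3, against 1.22, 1.29 and 1.56 CPM in Ogtflox-/Y (log2 fold change 1.30 with SE 0.24, edgeR adjusted p = 8.15e-04). Beside Psmb7, inside Nek6 (chromosome 2, 38584572 to 38584972), there were 5.44, 4.99 and 5.98 CPM in Ogtflox+/Y, against 2.2, 2.73 and 2.6 CPM in Ogtflox-/Y (1.11, SE 0.20, edgeR adjusted p = 8.37e-04). The libraries of each group lie close together at both regions. Inside Psma6 (chromosome 12, 55407901 to 55408301) there were 1.21, 1.9 and 1.66 CPM in Ogtflox+/Y, against 0.38, 0.703 and 0.805 CPM in Ogtflox-/Y (1.26, SE 0.35, edgeR adjusted p = 0.0113). A second Psma6 region (55385955 to 55386355) had 3.55, 0.713 and 2.72 CPM in Ogtflox+/Y, against 1.6, 0.508 and 1.18 CPM in Ogtflox-/Y (1.19, SE 0.44, edgeR adjusted p = 0.0487). Its groups overlap, with replicate 2 lowest in both, and of the fits without 1 library it passed only in that without Ogtflox+/Y replicate 2 (edgeR adjusted p = 0.05 to 0.243 in the others), and not in DESeq2 (adjusted p = 0.101).

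A last set lay in or at the ends of neighbouring genes. Near Psma2, at an end of AW209491 (chromosome 13, 14631094 to 14631494), there were 4.91, 5.47 and 5.05 CPM in Ogtflox+/Y replicates 1 to 3, against 1.44, 2.27 and 2.56 CPM in Ogtflox-/Y (log2 fold change 1.26 with SE 0.23, edgeR adjusted p = 7.16e-04). Near Psmb8, at an end of the peptide transporter gene Tap2 (chromosome 17, 34205469 to 34205869), there were 5.52, 3.33 and 5.38 CPM in Ogtflox+/Y, against 2.05, 2.46 and 2.41 CPM in Ogtflox-/Y (1.03, SE 0.23, edgeR adjusted p = 0.00357). Inside Cpne2, near Psme3ip1 (chromosome 8, 94568115 to 94568515), there were 8.32, 9.27 and 9.24 CPM in Ogtflox+/Y, against 1.98, 2.27 and 1.85 CPM in Ogtflox-/Y (2.13, SE 0.19, edgeR adjusted p = 1.03e-06). Groups are apart at these regions. Near Psmb10, at the ends of Lcat and Slc12a4 (chromosome 8, 105943353 to 105943753), there were 8.47, 2.06 and 8.37 CPM in Ogtflox+/Y, against 2.58, 2.34 and 2.27 CPM in Ogtflox-/Y (1.41, SE 0.34, edgeR adjusted p = 0.00535), and beside it (105943778 to 105944178) 1.51, 0.634 and 2.33 CPM in Ogtflox+/Y, against 0.38, 0.547 and 0.758 CPM in Ogtflox-/Y (1.38, SE 0.42, edgeR adjusted p = 0.0208). Ogtflox+/Y replicate 2 lies below the Ogtflox-/Y libraries at the first of these and among them at the second. In the astrocyte marker sum that library had 19.3 CPM, against 44.2 and 41.3 CPM in the other Ogtflox+/Y libraries. It was also the lowest of its group in the oligodendrocyte, GABAergic and endothelial sums. The part of cell types at these regions was not tested. The second did not pass without Ogtflox+/Y replicate 3 or Ogtflox-/Y replicate 1 or 2 (edgeR adjusted p = 0.191, 0.0725 and 0.0759). DESeq2 called neither (adjusted p = 0.0854 for the first and 0.0584 for the second).

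The single loss of at least 2-fold lay outside Psmb5 (chromosome 14, 54610596 to 54610996), with 2.72, 2.14 and 3.66 CPM in Ogtflox+/Y replicates 1 to 3, against 9.12, 5.12 and 4.69 CPM in Ogtflox-/Y (log2 fold change -1.11 with SE 0.26, edgeR adjusted p = 0.00497). Psmb7, with 16 regions within 10 kb, had calls in both directions. Inside the gene a region (chromosome 2, 38592133 to 38592533) fell by 0.66 on the log2 scale (SE 0.15, edgeR adjusted p = 0.00292), with 6.65, 7.45 and 8.31 CPM in Ogtflox+/Y against 11.5, 12.6 and 11.4 CPM in Ogtflox-/Y. A region 3309 bp beyond its bound (38647261 to 38647661) rose, with 25.5, 26.4 and 31.8 CPM in Ogtflox+/Y against 17.7, 16.8 and 17.6 CPM in Ogtflox-/Y (0.69, SE 0.11, edgeR adjusted p = 3.07e-04). Groups are apart at these 3 regions. Also inside Psmb7, a region from 38615134 to 38615534 rose by 0.89 on the log2 scale (SE 0.30, edgeR adjusted p = 0.0307), with overlapping groups. Another from 38621094 to 38621494 rose by 0.76 (SE 0.21, edgeR adjusted p = 0.0116), with groups apart. The Psmb7 start region was not called.

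**Figure D5:**
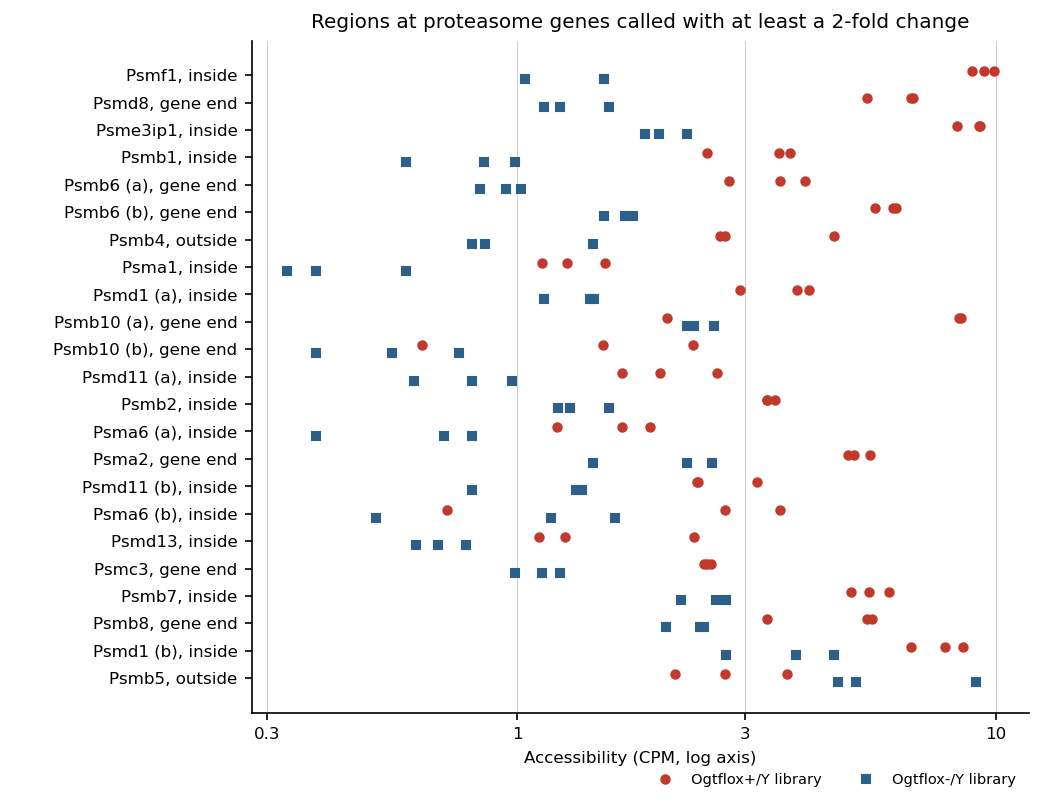
Accessibility (CPM, log axis) of the 23 member regions called with at least a 2-fold change, in order of the change, labelled by the member and the position class; red circles are Ogtflox+/Y libraries and blue squares Ogtflox-/Y libraries. The red points are on average higher in 22 of them and lower at Psmb5, and the groups overlap at both regions near Psmb10 and at Psma6 (b).

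Genes that work with the proteasome without bearing its symbol were read from a list of 33, of which 32 had a start region. Of these 20 rose and 1 fell (62.5% and 3.12%), with a median log2 fold change of 0.33, beside the 43.1% and 3.09% given above for other genes in the top level class. Pomp, the maturation factor of the core particle, had 29.3, 29.0 and 28.8 CPM in Ogtflox+/Y replicates 1 to 3, against 20.4, 20.6 and 22.6 CPM in Ogtflox-/Y (0.45, SE 0.10, edgeR adjusted p = 0.00281). Ecpas, for a scaffold that tethers and inhibits proteasomes, had 33.2, 28.0 and 28.6 CPM in Ogtflox+/Y, against 17.5, 21.2 and 19.4 CPM in Ogtflox-/Y (0.62, SE 0.11, edgeR adjusted p = 6.07e-04). Ngly1, for the deglycosylase that activates Nfe2l1, had 42.6, 33.6 and 37.9 CPM in Ogtflox+/Y, against 24.9, 25.4 and 25.9 CPM in Ogtflox-/Y (0.58, SE 0.10, edgeR adjusted p = 6.63e-04). Groups are apart at all of these. Genes of regulatory particle subunits and of a bound deubiquitinase outside the symbol rule also rose. The log2 fold changes were 0.38 for Sem1, 0.32 for Adrm1 and 0.46 for Usp14. Uchl5, for another deubiquitinase of the list, had 0.25 and was not called (edgeR adjusted p = 0.0543).

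The transcription factor genes of the list differed. Nfe2l2, for the factor of the antioxidant response, had 28.3, 10.6 and 17.3 CPM in Ogtflox+/Y replicates 1 to 3, against 3.8, 3.44 and 3.41 CPM in Ogtflox-/Y (chromosome 2, 75704393 to 75704793; log2 fold change 2.41 with SE 0.25, edgeR adjusted p = 4.60e-06). Its Ogtflox+/Y libraries spread widely, all above Ogtflox-/Y, with replicate 2 the lowest. Ogtflox+/Y replicate 2 was also the lowest of its group in the astrocyte, oligodendrocyte, GABAergic and endothelial marker sums. The part of cell types in the Nfe2l2 values was not tested. Nfe2l1, the factor best known for proteasome genes, had 69.1, 58.2 and 67.4 CPM in Ogtflox+/Y, against 70.4, 60.9 and 62.4 CPM in Ogtflox-/Y (0.01, SE 0.10, edgeR adjusted p = 0.945). Of the NF-Y subunit genes Nfyb and Nfyc rose, by 0.57 and 0.38 on the log2 scale, and Nfya had 0.18 (edgeR adjusted p = 0.218). The one lower start region was that of Ufd1, a cofactor of the unfoldase Vcp, with 15.6, 13.7 and 14.1 CPM in Ogtflox+/Y, against 21.7, 21.1 and 20.3 CPM in Ogtflox-/Y (-0.54, SE 0.11, edgeR adjusted p = 0.00207), while Vcp itself rose by 0.31.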

How the data were processed

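The samples were 6 ATAC-seq libraries of sorted nuclei. Per the submitters' processing notes, mm10 was the build, and MACS2, Picard, SAMtools 1.9, BWA, Trimmomatic and FastQC were used, in roles not stated; the labels' protocols describe a general DNA library kit and name no transposition step. Peak settings and any shift of reads for the transposase are not in the sources used here. Per the file headers, the deposited tables give a read count for each of 193148 regions common to all libraries, 94.6% of them 401 bp wide. The deposited RPKM values served only to recover library totals, and the deposited score is the count scaled to the mean total and was not tested.

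Counts of all regions were fitted with edgeR 4.0.16 in R 4.3.3 (quasi-likelihood test, TMM, the package's filter on low counts, group as the only term). A call is a Benjamini-Hochberg adjusted p under 0.05 over 191693 regions. Levels are CPM relative to TMM-scaled reads in regions; 3 reads equal 0.123 to 0.236 CPM, a floor for counting error only. No pair of libraries of the same group agreed within sampling noise (chi-square per degree of freedom 1.84 to 2.91). Genes, starts and sequences come from RefSeq for GRCm38.p6; exons and UTRs were not told apart. Starts of 8 members were not in the promoter table, and both bounds were used. Position classes use the bounds of all 21887 protein-coding genes, and level classes are 10 equal groups by mean CPM.

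Members and lists were chosen with earlier results of these data known, and no list was tested. Named are, per role, up to 3 called start regions of largest change, member regions called with at least 2-fold, Psmb8, Psmb9, Psmb10, Psme1 and Psme2, the extremes of level in either particle and up to 3 related genes per direction; others were picked after their values were seen. Alternatives were DESeq2 1.42.0, no filter, 3 other scalings, leaving out each library, Ogtflox+/Y replicate 2 alone, grouping by title, windows of 0 and 5 kb, starts within 3 kb and 5 level classes; finer distance and level classes, and members without shared starts, were added after seeing the data.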

Additional observations from a re-analysis of the deposited data

How the results depend on the processing

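No paired analysis was possible because the replicate numbers of the 2 groups follow accession order and the numbers in the titles differ throughout. The higher and lower counts over member regions were 73 and 11 as reported and 25 and 34 with library totals. They were 56 and 22 with reads in regions, 54 and 5 with DESeq2 and 0 and 0 by title. With windows of 0 and 5 kb they were 51 and 2, and 62 and 6. Leaving out 1 library gave 44 to 71 higher and 3 to 13 lower. Over all regions 15.4% and 12.7% were called as reported, and 6.85% and 24.6% with library totals. With reads in regions the shares were 11.8% and 17.4%, with DESeq2 10.9% and 7.69%, and by title 0%. Without 1 library they were 9.91% to 15.6% higher and 7.66% to 12.9% lower. Start regions, 20 and 0 as reported, had 1 and 1 with library totals, 1 lower with reads in regions, 6 and 1 with loess curves, 7 higher with Ogtflox+/Y replicate 2 alone, 0 by title and 8 to 22 higher without 1 library. The medians of all, core and regulatory start regions were 0.0, 0.0 and 0.05 with library totals, 0.001, -0.001 and 0.039 with loess curves and 0.117, 0.104 and 0.114 by title. Inside regions, 29 and 5 as reported, had 19 and 2 with DESeq2 and 14 and 14 with library totals. They had 22 and 8 with reads in regions, 28 and 2 with loess curves and 0 and 0 by title. Without 1 library 19 to 27 were higher and 1 to 6 lower. Of other inside regions 11.9% and 13.4% were called as reported, 7.94% and 8.03% with DESeq2 and 5.52% and 26.1% with library totals. The shares were 9.01% and 18.5% with reads in regions and 11.8% and 11.5% with loess curves. Without 1 library they were 7.67% to 12.1% higher and 7.87% to 13.3% lower. The weighted shares of other regions called higher became 40.0% at starts with level classes set among start regions and 15% inside genes with distance added.

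Positive start regions numbered 41 of 47 as reported and 24 with either library totals or loess curves. Among the start regions named by rule, log2 fold changes that turned sign were Psma5 (-0.0015), Psme3ip1 (-0.0029), Psme2 (-0.088) and Psmb3 (-0.078) with loess curves, and Psme1 (-0.0051), Psme2 (-0.055) and Psmb3 (-0.027) with library totals. Psmb8 (0.02, 0.024 and 0.038) and Psmb11 (0.18, 0.21 and 0.12) turned without Ogtflox+/Y replicate 3, without Ogtflox-/Y replicate 1 and with Ogtflox+/Y replicate 2 alone; without 1 library their lowest values were -0.08 for Psmb8 and -0.18 for Psmb11. With Ogtflox+/Y replicate 2 alone, the Psma6 region at 55385955 had -0.54 and the Psmb10 region at 105943353 had -0.23. Causes were not tested. Of 44 called regions and genes named by rule, 37 kept their call in DESeq2, 24 with library totals, 32 with loess curves, 39 with reads in regions, 22 with Ogtflox+/Y replicate 2 alone and 0 by title.

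Depth limits regions near 1 CPM, and 3 libraries per group limit every comparison; RNA was not measured.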

Other observations

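Ogtflox-/Y replicate 1 was the highest Ogtflox-/Y library at 41 of 47 proteasome start regions (87.2%), against 68.3% of the start regions of other genes in the most accessible of 10 level classes. The library stood above Ogtflox-/Y replicates 2 and 3 in the summed level of both particles, at 426 against 365 and 354 CPM for the core and 495 against 431 and 419 CPM for the regulatory particle. Without it 22 member start regions were called higher, 19 of them among the 20 called with all libraries. Ogtflox+/Y replicate 1 was the highest Ogtflox+/Y library at 29 of the 47 (61.7%), against 62.1% of other genes in that class.

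Start regions that members share with the start of another gene were called in a larger share than those they do not share. Of 9 shared start regions 5 rose, with a median log2 fold change of 0.37, and of 38 not shared 15 rose, with a median of 0.25. These are 55.6% and 39.5%, beside 43.1% of other genes' start regions in the most accessible level class. The same split of other genes is not given here, and the difference was not tested.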
